A study of Mus musculus with 6 samples.

Results

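The Myc, Max and Mxd network was followed here as 10 genes, taken by symbol from the 24421 genes of a deposited expression table: the Myc family genes Myc, Mycn and Mycl, their shared partner Max, the antagonists Mxd1, Mxd3, Mxd4, Mxi1 and Mnt, and the Max-like gene Mlx. The study measured total RNA in 3 mammary tumours and 3 mammary glands of female mice aged 5 months. The tumours came from FVB/NJ mice labelled MMTV-Tg(LINK-A), in which the mouse mammary tumour virus promoter, active in mammary epithelium, drives LINK-A, a human long non-coding RNA linked to breast cancer. The glands came from FVB/NJ mice labelled Tg(LINK-A), whose label names the transgene but no promoter, so that a difference in genotype and the difference in tissue cannot be told apart. All 6 libraries thus carry the FVB/NJ background and a LINK-A transgene in their label. No label says that the libraries of a group came from separate animals, so p-values measure the spread between these samples, which may be technical.

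Myc proteins are transcription factors of cell growth and division that bind DNA only when paired with Max, at a short sequence called the E-box. Mxd proteins, Mxi1 and Mnt compete for Max, bind the same sites and repress them by recruiting Sin3 and histone deacetylases, and Mxd genes are typically switched on as cells leave the cell cycle. Mlx is built like Max and pairs with some Mxd proteins, with Mnt and with the glucose-responsive factors Mlxip and Mlxipl. Excess Myc in the mammary gland drives tumours in mice, and the gene is often amplified in human breast cancer.

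The canonical E-box, CACGTG, reads the same on both strands and was the only motif searched. RefSeq promoter windows of build GRCm38.p6 (mm10), from 250 bases before to 50 bases after a gene's start, matched 9 of the 10 network genes, all but Myc. At least one E-box lay in a window of 4 of these 9 genes, against 2187 of 27025 genes with any window (8.09%). Counted by window, it lay in 7.15% of all 32851 windows of this length. The windows of network genes had a median GC content of 64.0%, against 52.7% over all windows. The 4 windows that hold the sequence are shown: those of the shared partner Max, of Mlx and of the antagonist Mxd4, which the results below turn on, and that of the antagonist Mnt, which did not pass the test. Capitals mark the E-box, each sequence runs 5′ to 3′ on the gene's strand, and base 1 is the first base of the window.
Max, chr12:76962199-76962498, minus strand: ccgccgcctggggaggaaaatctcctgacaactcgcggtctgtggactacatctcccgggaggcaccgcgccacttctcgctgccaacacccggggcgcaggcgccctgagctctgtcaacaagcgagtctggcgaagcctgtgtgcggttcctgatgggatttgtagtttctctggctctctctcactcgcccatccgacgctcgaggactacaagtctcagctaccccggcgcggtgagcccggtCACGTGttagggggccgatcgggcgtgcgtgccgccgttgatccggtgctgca
Mlx, chr11:101087040-101087339, plus strand: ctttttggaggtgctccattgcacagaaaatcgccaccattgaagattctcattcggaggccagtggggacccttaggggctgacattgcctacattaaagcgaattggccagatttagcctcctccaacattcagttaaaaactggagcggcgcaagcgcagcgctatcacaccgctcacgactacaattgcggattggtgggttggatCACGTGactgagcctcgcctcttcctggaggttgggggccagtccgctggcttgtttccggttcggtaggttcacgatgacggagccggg
Mxd4, chr5:34187661-34187960, minus strand: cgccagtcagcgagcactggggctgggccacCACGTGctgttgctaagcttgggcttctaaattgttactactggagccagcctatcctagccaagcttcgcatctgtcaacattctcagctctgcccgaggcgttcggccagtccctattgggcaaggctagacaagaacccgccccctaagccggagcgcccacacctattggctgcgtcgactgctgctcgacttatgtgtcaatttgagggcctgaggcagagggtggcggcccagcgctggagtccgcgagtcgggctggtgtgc
Mnt, chr11:74830674-74830973, plus strand: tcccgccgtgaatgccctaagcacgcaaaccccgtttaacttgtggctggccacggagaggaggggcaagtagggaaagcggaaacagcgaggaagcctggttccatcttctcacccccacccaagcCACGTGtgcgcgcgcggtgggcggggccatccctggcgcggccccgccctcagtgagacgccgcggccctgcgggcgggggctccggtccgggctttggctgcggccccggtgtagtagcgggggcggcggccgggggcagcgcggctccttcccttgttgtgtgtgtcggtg

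In the Max window the E-box begins at base 248 and so spans the RefSeq start on which the window is placed, which lies upstream of the GENCODE start given with the values. It begins at base 211 in the Mlx window, at base 128 in the Mnt window and at base 32 in the Mxd4 window. The match says only that these letters are present, and binding was not measured in these samples.

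Each gene had 1 value per library, taken as FPKM. This unit divides a gene's fragments by the length of its transcript and by the size of the library, so that levels may be compared between genes. Comparison between samples also depends on the scaling, since the sums differed. FPKM values summed to between 486080 and 582996 in the tumours and to between 495985 and 510957 in the glands. Absolute depth is unknown, and the steps between low values put the other libraries at 1.43 to 1.88 times the depth of tumour 1, the shallowest. These ratios are rough, since only 163 of the 2047 pairs of low values that include tumour 1 lay on them. Both tissues held epithelial RNA: the summed level of luminal epithelium markers was 2959, 2887 and 3247 FPKM in tumours 1 to 3, against 1113, 1061 and 1125 FPKM in glands 1 to 3. Markers of B and T lymphocytes summed to 43.3, 39.1 and 3.02 FPKM in the tumours, with 3 of 8 at 0 in tumour 3, against 200.4, 47.95 and 199.5 FPKM in the glands, where glands 1 and 3 stood apart. Skeletal muscle markers summed to at most 26.8 FPKM in a tumour, against 13.1, 11150 and 995.9 FPKM in glands 1 to 3, so gland 2 held the most muscle RNA.

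Among the network genes, Max, Mlx and Mxd3 were higher in the tumours and Myc and Mxd4 were lower, by limma on log2(FPKM + 1), a scale that understates the changes of low genes, with Benjamini-Hochberg adjustment over the 13364 genes whose mean reached 1 FPKM. Mxd1, Mxi1 and Mnt did not pass the adjusted p of 0.05, and Mycn lay under the minimum mean and was not tested. Mycl was also called lower, but it reached the minimum mean only through the glands and is left out of the count. The 5 called genes of the other 8 tested compare with 45.1% of all tested genes, and the 3 higher and 2 lower genes with 21.9% and 23.1%. The groups did not overlap for these 5 genes and for Mycl, as they did not for 58.2% of all tested genes. An exact 2-sided permutation test over the 20 arrangements of the libraries gave p = 0.1 for each of them, the smallest value that 3 libraries against 3 can give. The calls of Myc, Max, Mlx and Mxd3 sat close to the threshold. With Mycl counted, the network had 6 calls. Leaving out tumour 1 or gland 2 left 2 calls, tumour 2 or gland 1 left 3, gland 3 left 4 and tumour 3 left 5, and with glands 1 and 3 left out together 1 call was left. A minimum fold change of 2 left Mycl alone.

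**Figure D1:**
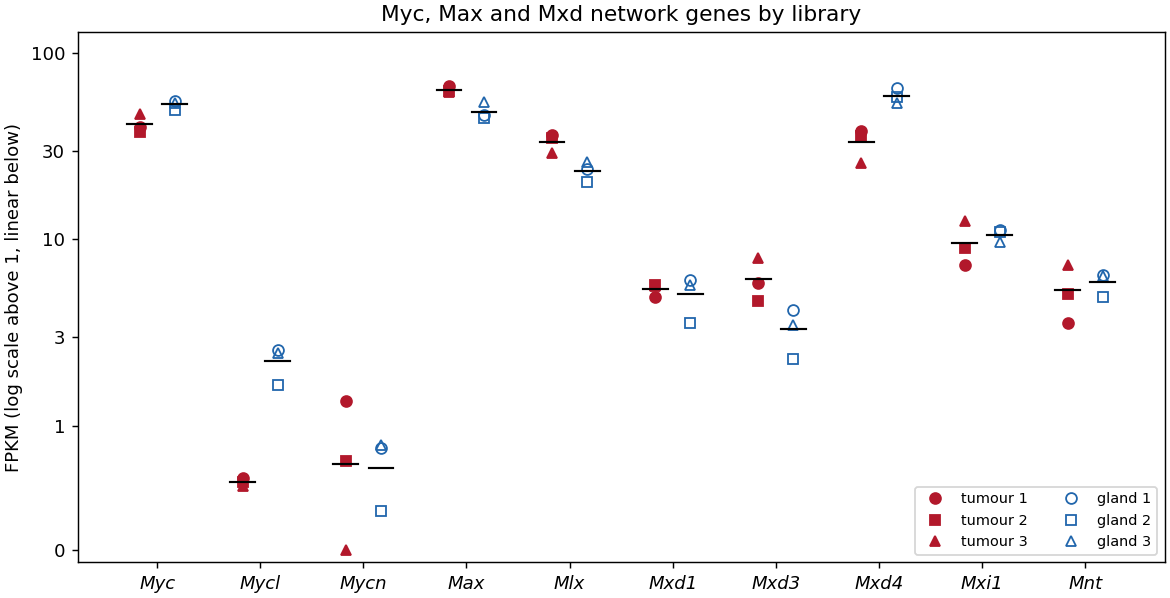
FPKM of each network gene in each library, with tumours as filled red symbols to the left and glands as open blue symbols to the right of each gene, the library number as the symbol's shape, and bars at the group means; the axis is logarithmic above 1 FPKM and linear below. Max, Mlx and Mxd3 lie higher in all 3 tumours than in any gland, Myc, Mycl and Mxd4 lie lower, and the remaining genes overlap.

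Of the Myc family, Myc itself carried nearly all of the RNA in both tissues. Myc (chromosome 15, 61985391 to 61990374, mm10) stood at 40.4, 37.6 and 47.3 FPKM in tumours 1 to 3, against 55.6, 49.7 and 54.3 FPKM in glands 1 to 3. Every tumour value thus lay below every gland value, and the gap between the highest tumour and the lowest gland was small. Myc averaged 41.7 ± 4.98 FPKM in the tumours and 53.2 ± 3.13 FPKM in the glands (SD, n = 3 each), and its log2 fold change came to -0.35 (limma, SE 0.12, with an adjusted p of 0.0485). In bulk tissue, fewer cells of a type that expresses a gene and less of its RNA per cell cannot be told apart. The call of Myc held in 1 of the 6 fits that left out a library, the one without tumour 3 (-0.44, adjusted p = 0.0115), and without any other library the log2 fold change lay between -0.39 and -0.28 with no call. It was also lost with a minimum mean of 5 FPKM (adjusted p = 0.0517), a common sum per library (adjusted p = 0.0675), the replicate number as a block (adjusted p = 0.0948) and with glands 1 and 3 left out (adjusted p = 0.418), over a range of 0.0115 to 0.418.

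Mycl, the family member named after lung cancer, was low in both tissues and lower in every tumour than in any gland. Mycl (chromosome 4, 122995652 to 123002485) had 0.577, 0.543 and 0.511 FPKM in tumours 1 to 3, against 2.54, 1.65 and 2.46 FPKM in glands 1 to 3. The tumours lay close together and well under all 3 glands. Its mean over the 6 libraries, 1.38 FPKM, exceeded the minimum of 1 FPKM through the gland values alone, so that it could not have been tested without a difference, and its values are a description. The log2 fold change was -1.05 (SE 0.19), and the mean tumour level was 0.246 times the mean gland level. With a pseudocount of 0.1 in place of 1 FPKM the log2 fold change was -1.82, and with quantile-normalized values it was -0.43.

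Mycn, the family member best known from neuroblastoma (chromosome 12, 12936093 to 12941914), was the lowest network gene in the glands. It stood at 1.36, 0.717 and 0 FPKM in tumours 1 to 3, against 0.823, 0.309 and 0.842 FPKM in glands 1 to 3. The tumours enclosed the whole range of the glands, and tumour 3 is listed at 0. With no minimum mean, the log2 fold change was -0.04 (limma adjusted p = 0.935), and it took values between -0.32 and 0.30 when 1 library was left out. Myc made up 95.4, 96.7 and 98.9% of the summed FPKM of the 3 family genes in tumours 1 to 3, against 94.3, 96.2 and 94.3% in glands 1 to 3. The shares overlapped between the tissues.

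Max, the partner that Myc, Mxd and Mnt proteins share, was the highest network gene in the tumours. Max (chromosome 12, 76937269 to 76962201) had 67.2, 62.8 and 61.7 FPKM in tumours 1 to 3, against 46.5, 44.7 and 54.7 FPKM in glands 1 to 3. Max overlaps Gm47218, a gene on the same strand without a deposited value, by 1319 bases. All tumours lay above all glands in the level of Max, with gland 3 nearest to them. The log2 fold change was 0.39 (SE 0.11, adjusted p = 0.0263), from means of 63.9 ± 2.89 FPKM in the tumours and 48.7 ± 5.32 FPKM in the glands. It remained positive in all 14 alternatives, between 0.31 and 0.50. The call was lost without tumour 1, tumour 2, gland 1 or gland 2 (adjusted p 0.0564 to 0.0946), at a common sum (0.0646), with the replicate block (0.0829) and with glands 1 and 3 left out (0.0957), over a range of 0.025 to 0.0957.

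Mlx, which plays the part of Max for the glucose-responsive factors, was also higher. Mlx (chromosome 11, 101087277 to 101092207) had 36.6, 35.0 and 29.3 FPKM in tumours 1 to 3, against 24.0, 20.4 and 26.1 FPKM in glands 1 to 3. Tumour 3 was the lowest tumour and still stood above every gland. The log2 fold change was 0.50 (SE 0.14, adjusted p = 0.0227). Its call was lost without tumour 1, tumour 2, gland 1 or gland 2 (adjusted p 0.057 to 0.0781), with the replicate block (0.0675) and with glands 1 and 3 left out (0.098), over a range of 0.00964 to 0.098. The 3′ end of Mlx overlaps Psmc3ip on the opposite strand by 385 bases, and whether the libraries kept the strand is not stated by the labels. Psmc3ip stood at 17.8, 14.9 and 12.1 FPKM in tumours 1 to 3, against 12.4, 12.1 and 16.6 FPKM in glands 1 to 3.

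Among the antagonists, Mxd4 was the most abundant in each library and was the only one called lower. Mxd4 (chromosome 5, 34173883 to 34187720) is an Mxd repressor expressed in many resting tissues. It overlaps Gm42846, an antisense gene without a deposited value, by 1001 bases on the opposite strand. Mxd4 had 38.3, 36.1 and 25.8 FPKM in tumours 1 to 3, against 65.1, 58.2 and 54.3 FPKM in glands 1 to 3. No tumour came near the lowest gland, and tumour 3 was the lowest of all. The log2 fold change was -0.82 (SE 0.17, adjusted p = 0.00702), so that the mean tumour level was 0.564 times that of the glands. It kept its call in each of the 6 fits without a library, between -0.93 and -0.65, and lost it under the minimum fold change of 2 and with glands 1 and 3 left out together (-0.80, at an adjusted p of 0.144, the highest of a range that began at 0.00234), where 1 gland was left.

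Mxd3, an Mxd gene known in mice for expression in dividing cells, went the other way. Mxd3 (chromosome 13, 55325168 to 55329823) had 5.86, 4.68 and 7.96 FPKM in tumours 1 to 3, against 4.20, 2.29 and 3.46 FPKM in glands 1 to 3. Tumour 2 lay just above gland 1, and the other tumours lay clear of the glands. The log2 fold change was 0.73 (SE 0.24, adjusted p = 0.0426). The call was lost without tumour 1, tumour 3, gland 2 or gland 3 (0.55 to 0.77, adjusted p 0.0805 to 0.116), with no minimum mean (0.0626), at a common sum (0.0817) and with glands 1 and 3 left out (1.10, adjusted p = 0.113), over a range of 0.00942 to 0.116. Its 3′ end overlaps Prelid1 on the other strand by 105 bases, and Prelid1 stood at 430.8, 388.6 and 402.5 FPKM in tumours 1 to 3, against 175, 146.5 and 178.2 FPKM in glands 1 to 3. The part of Prelid1 reads in the value of Mxd3 was not tested.

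Mxd1, Mxi1 and Mnt did not pass, and their groups overlapped. Mxd1, the founding Mxd gene (chromosome 6, 86647042 to 86669161), had 4.89, 5.72 and 5.63 FPKM in tumours 1 to 3, against 6.05, 3.54 and 5.68 FPKM in glands 1 to 3. All 3 tumours lay within the range of the glands, which gland 2 widened. The log2 fold change of Mxd1 was 0.10 (95% interval -0.37 to 0.56, adjusted p = 0.71), and -0.10 without gland 2.

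Mxi1, an Mxd family repressor also called Mxd2 (chromosome 19, 53310518 to 53375810), had 7.29, 8.96 and 12.6 FPKM in tumours 1 to 3, against 11.3, 10.9 and 9.63 FPKM in glands 1 to 3. The tumours spread to both sides of the glands. Its log2 fold change was -0.16 (95% interval -0.62 to 0.30, adjusted p = 0.543). Mnt, a ubiquitous Max partner that limits Myc activity (chromosome 11, 74830920 to 74845725), had 3.57, 5.12 and 7.29 FPKM in tumours 1 to 3, against 6.46, 4.90 and 6.34 FPKM in glands 1 to 3. Here too the tumours enclosed the glands, and the log2 fold change was -0.16 (95% interval -0.72 to 0.40, adjusted p = 0.607), turning to 0.08 under quantile normalization and to 0.05 without tumour 1. All 3 intervals include a fall of the size seen for Myc.

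**Figure D2:**
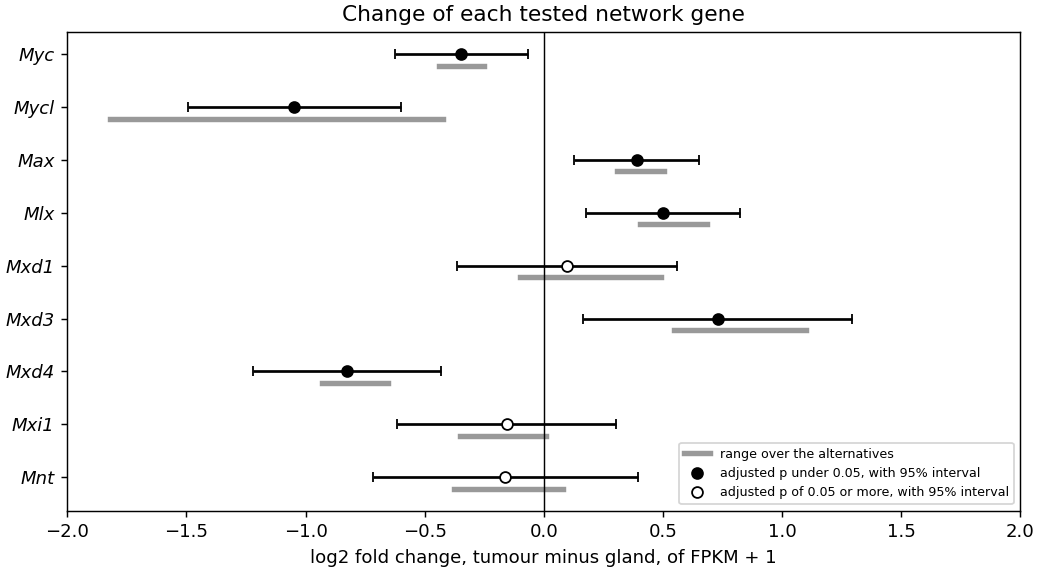
Log2 fold change (tumour minus gland, FPKM + 1) of the 9 tested network genes, with 95% intervals; filled points passed an adjusted p of 0.05 and grey bars give the range over the alternative settings. Max, Mlx and Mxd3 lie above 0 and Myc, Mycl and Mxd4 below 0 over the whole grey range, while those of Mxd1, Mxi1 and Mnt cross 0.

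The order of levels differed between the tissues at its top. In the tumours Max was highest and clear of the next gene, Myc, which in turn stood above Mlx in every tumour. Mxd4 overlapped with both Myc and Mlx there. Lower down, Mxi1 overlapped with Mxd3, and Mxd3, Mxd1 and Mnt overlapped with each other. In the glands Mxd4 was highest, overlapping with Myc, and Myc overlapped with Max. Mlx, then Mxi1, followed in separate ranges, Mnt, Mxd1 and Mxd3 formed an overlapping run, and Mycl and Mycn were lowest in both tissues. Gland 2, with the most muscle and the fewest lymphocyte transcripts of the glands, was the lowest gland for 8 of the 10 genes. Gland 2 also tended to be lower beyond the network. Over the 13364 tested genes, tumour minus gland had a median of 0.00832 on the log2 scale. That median was -0.0207 without gland 2 and 0.0727 with gland 2 as the only gland. The share of all genes with their lowest gland value in gland 2 was not counted. Tumour 3 was the highest tumour for 4 genes and the lowest for 5. The part of lymphocyte or muscle RNA in the values of the network genes was not tested.

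Sums over the network describe how its sides stood to each other, with no test. Myc, Mycn and Mycl together had 42.3, 38.8 and 47.8 FPKM in tumours 1 to 3, against 59.0, 51.6 and 57.6 FPKM in glands 1 to 3. Mxd1, Mxd3, Mxd4, Mxi1 and Mnt together had 59.9, 60.5 and 59.3 FPKM in the tumours, against 93.0, 79.9 and 79.4 FPKM in the glands. Both sides were thus lower in every tumour than in any gland.

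The ratio of the Myc family sum to the antagonist sum was 0.706, 0.642 and 0.806 in tumours 1 to 3, against 0.634, 0.646 and 0.725 in glands 1 to 3. These ranges overlapped. Relative to Max, the Myc family stood at 0.63, 0.619 and 0.774 in the tumours, against 1.27, 1.15 and 1.05 in the glands. The antagonists stood at 0.892, 0.965 and 0.961 times the level of Max in the tumours, against 2.0, 1.79 and 1.45 times in the glands. Both ratios to Max were lower in all tumours than in any gland, with means 0.582 and 0.538 times those of the glands. They add no separate result, since Myc and Mxd4, the largest parts of the sums, were lower in every tumour and Max was higher. RNA levels alone do not give the amounts of the protein pairs.

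**Figure D3:**
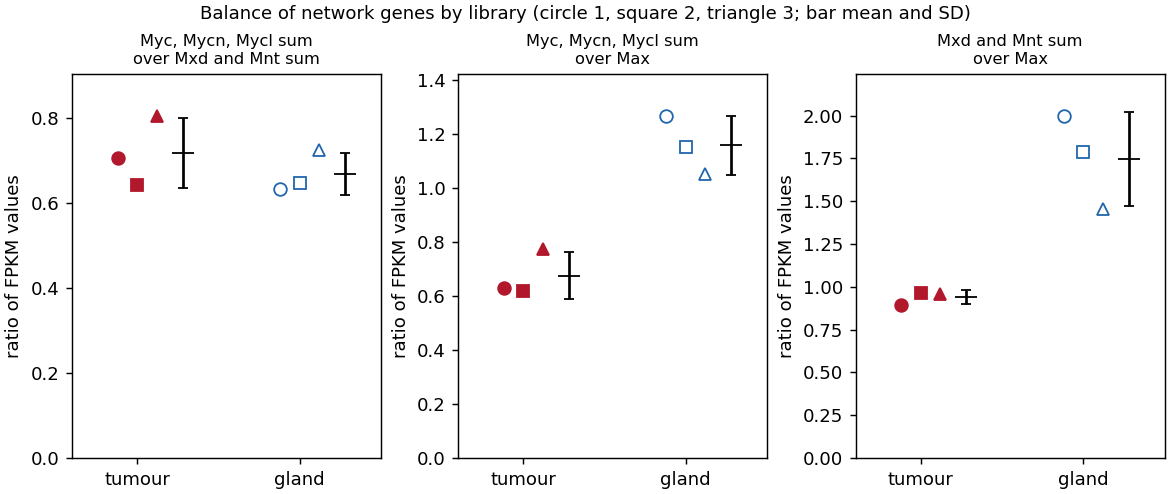
Ratios of summed FPKM values in each library, tumours in filled red and glands in open blue, with the library number as the symbol's shape and bars at the mean with its SD (n = 3 each). The Myc family to antagonist ratio overlaps between the tissues, and both ratios to Max are lower in every tumour.

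Within the antagonist sum, Mxd4 made up 63.9, 59.6 and 43.5% in tumours 1 to 3, against 69.9, 72.9 and 68.4% in glands 1 to 3. Mxd3 made up 9.79, 7.73 and 13.4% in the tumours, against 4.51, 2.87 and 4.36% in the glands. The shares of both genes did not overlap between the tissues, and Mxd4 remained the largest part in each library.

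The remaining partners of Max and Mlx moved unequally. Mlxipl, also known as ChREBP, which switches on sugar and fat synthesis genes in liver and fat, had 2.05, 2.39 and 5.02 FPKM in tumours 1 to 3, against 35.5, 32.8 and 35.5 FPKM in glands 1 to 3. The tumours lay far under the glands, and the log2 fold change came to -3.17 (limma, SE 0.25, adjusted p = 1.5e-04). Mlxip, its relative of muscle and other tissues, had 13.8, 21.1 and 27.3 FPKM in tumours 1 to 3, against 20.3, 17.0 and 17.6 FPKM in glands 1 to 3, with no call (0.13, adjusted p = 0.682, and -0.09 without tumour 3). Mga, a Max partner that takes part in a repressive Polycomb complex, averaged 5.52 ± 0.814 FPKM in the tumours and 6.34 ± 0.465 FPKM in the glands (n = 3 each, -0.18, limma adjusted p = 0.342).

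Of 7 genes that Mlx partners are known to activate, 6 were tested, and 0 were higher, 5 lower and 1 did not pass, against 21.9% higher and 23.1% lower over all tested genes. Their median log2 fold change was -1.85, against 0.01 over all tested genes. Txnip, the glucose-induced inhibitor of thioredoxin and a classic target of Mlxip and Mlxipl, had 142, 136 and 125 FPKM in tumours 1 to 3, against 548, 506 and 561 FPKM in glands 1 to 3 and fell by 1.996 on the log2 scale (SE 0.11, adjusted p = 3.8e-05). The fatty acid synthase gene Fasn averaged 81.9 ± 25.6 FPKM in the tumours and 957 ± 123 FPKM in the glands (-3.57), and the glycolysis regulator Pfkfb3 8.64 ± 1.27 and 45.97 ± 4.82 FPKM (-2.29). Acly, which makes acetyl-CoA for lipid synthesis, fell by 1.70 on the log2 scale. The arrestin gene Arrdc4 averaged 20.97 ± 5.63 FPKM in the tumours and 25.5 ± 2.99 FPKM in the glands and did not pass (-0.30, adjusted p = 0.283).

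Adipocyte markers were also lower in the tumours than in the glands. All 7 of them were called lower. Of these, Lep (means of 0.688 FPKM in the tumours and 47.75 FPKM in the glands) reached the minimum mean only through the glands, so its call is a description. The summed level of the 7 markers was 226.7, 217 and 33.3 FPKM in tumours 1 to 3, with 2 of them at 0 in tumour 3, against 7249, 6296 and 7626 FPKM in glands 1 to 3. Among the tumours the order differed by gene. Tumour 3, with the lowest adipocyte sum, had the highest Mlxipl (5.02 FPKM), Fasn (105 FPKM) and Acly (165 FPKM). Its Txnip (125 FPKM), Pfkfb3 (7.85 FPKM) and Arrdc4 (14.6 FPKM) were the lowest of the tumours. Fibroblast markers were lower in 6 of 6 cases and summed to 335.5, 417 and 120.4 FPKM in the tumours, against 1802, 1939 and 1830 FPKM in the glands. Endothelial markers were lower in 5 of 5 cases, summing to between 20.1 and 38.1 FPKM in the tumours and between 154.6 and 177.8 FPKM in the glands. Over all tested genes, 23.1% were lower. Other lists were mixed: of 6 basal epithelium markers 3 were lower and 3 did not pass. Of 6 myeloid markers 1 was higher, 2 were lower and 3 did not pass. The part of these cell types in the values of Mlxipl, Mxd4 and the Mlx partner target genes was not tested.

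Genes that Myc is known to activate were mostly higher, while Myc itself was lower. Of 40 known Myc target genes, 25 were higher, 2 lower and 13 did not pass, against 21.9% higher and 23.1% lower over all tested genes, and the median log2 fold change was 0.55. The balance over all genes moved with the scaling, at 2933 higher and 3090 lower as tested, 3664 and 2622 with quantile-normalized values, and 2279 and 3178 at a common sum per library. Luminal epithelium markers were higher in 9 of 9 cases as well (median log2 fold change 1.496), with the sums given above, and their part in the values of the Myc target and cell division genes was not tested. Tfrc, the transferrin receptor for iron uptake, had 62.1, 59.5 and 49.4 FPKM in tumours 1 to 3, against 11.9, 12.8 and 11.1 FPKM in glands 1 to 3 (log2 fold change 2.16, SE 0.12, adjusted p = 4.9e-05). The mitochondrial chaperone gene Hspd1 averaged 205 ± 19.7 FPKM in the tumours and 94.95 ± 1.90 FPKM in the glands (1.10), the growth regulator Pa2g4 142 ± 7.25 and 78.1 ± 3.08 FPKM (0.85) and the RNA helicase gene Ddx18 32.5 ± 0.856 and 15.3 ± 1.84 FPKM (1.05). Each of the 4, which were named for the smallest p of the list, was higher in all 3 tumours than in any gland. The groups did not overlap for 58.2% of all tested genes.

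Of the Myc target genes, 13 did not pass and 2 were called lower. Hexokinase 2 (Hk2) and the folate carrier Slc19a1 were the 2 genes called lower, by 0.75 and 0.61 on the log2 scale, and are named because the count is small. Both lost their call without tumour 1, tumour 2 or gland 1 and with glands 1 and 3 left out, Hk2 also without gland 2 (adjusted p 0.0515 to 0.153 over these fits) and Slc19a1 also without gland 3 (adjusted p 0.0558 to 0.337). The purine synthesis gene Paics stood at 79.6 ± 4.50 FPKM in the tumours and 78.4 ± 0.579 FPKM in the glands (0.02, or -0.02 without tumour 3, limma adjusted p = 0.874), and Phb, a mitochondrial scaffold gene, at 98.1 ± 22.7 and 81.6 ± 7.17 FPKM (0.24, adjusted p = 0.302). The median remained between 0.48 and 0.60 in the alternatives, including the fit with glands 1 and 3 left out, where 12 genes were called, all higher.

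The E-box shown above was frequent near these genes. It lay in a promoter window of 12 of the 35 Myc target genes with a window (34.3%), of 3 of the 7 Mlx partner target genes and of 0 of 14 cell division genes, against 8.09% of all genes. The median GC content of these windows was 61.3%, 65.3% and 57.7%, against 52.7% over all windows, and its part in the shares was not tested. For the Myc cofactors, corepressors and Myc turnover genes described below, the shares were 1 of 11 (9.09%), 1 of 9 (11.1%) and 1 of 13 genes (7.69%). These lay near the share of all genes, at a median GC content of 59.0%, 62.3% and 63.3%. Among Mga, Mlxip and Mlxipl, 1 of 3 genes had the sequence. Of the 12 Myc target genes with the sequence, 10 were higher and 0 lower, with a median log2 fold change of 0.59. Of the 23 without it, 11 were higher and 2 lower, with a median of 0.53. Over all tested genes, 21.9% were higher and 23.1% lower. These counts are a description, since both the lists and the sequence were chosen from what is known of Myc.

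**Figure D4:**
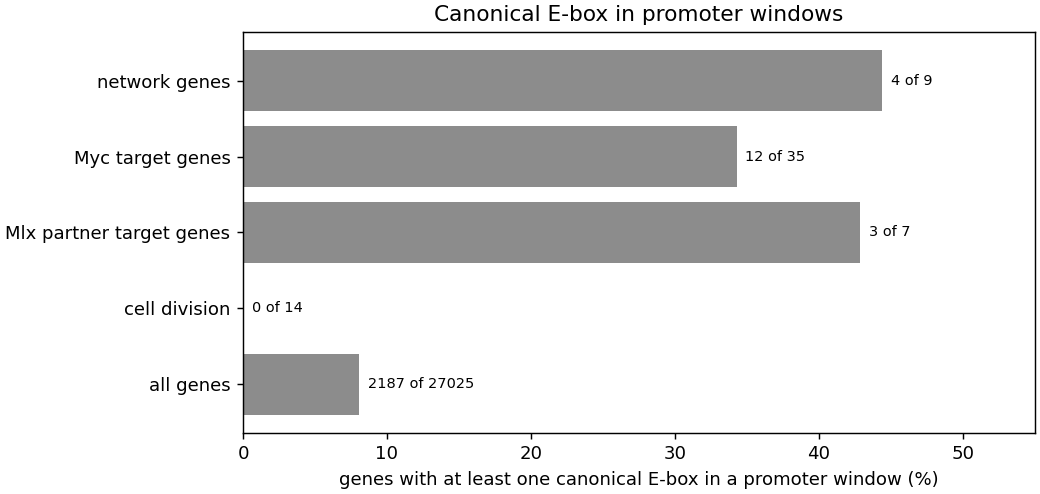
Share of genes (%) with at least one canonical E-box in a promoter window, with the number of genes beside each bar. The network genes (4 of 9), Myc target genes (12 of 35) and Mlx partner target genes (3 of 7) lie above the 8.09% of all genes, and the cell division list lies at 0.

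Cofactors on both sides of the network included no gene called lower, against 23.1% of all tested genes. Of 12 Myc cofactors, 5 were higher, 0 lower and 7 did not pass (median log2 fold change 0.19). The share called, 41.7%, was close to the 45.1% of all tested genes. All of these calls were higher, against 21.9% higher over all tested genes. The acetyltransferase gene Kat2a, which opens chromatin at Myc sites, averaged 31.9 ± 5.60 FPKM in the tumours and 16.8 ± 1.73 FPKM in the glands (0.88, SE 0.15, adjusted p = 0.00345). The paired helicases Ruvbl2 (0.54) and Ruvbl1 (0.44) and the chromatin adaptor Wdr5 (0.49) were also higher. Kat5, another acetyltransferase, did not pass, at a log2 fold change of -0.03 (0.03 without gland 1).

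Of 10 corepressor genes used by Mxd and Mnt proteins, 3 were higher, 0 lower and 7 did not pass (median 0.17), a share of 30% called, against 45.1% of all tested genes. By direction, 30% were higher and 0% lower, against 21.9% and 23.1%. Sap30, a subunit of the Sin3 complex, averaged 30.7 ± 5.63 FPKM in the tumours and 11.7 ± 1.59 FPKM in the glands (1.31, SE 0.17, adjusted p = 0.00107), and the scaffold Sin3b (0.52) and the histone-binding subunit Rbbp7 (0.43) were higher too. The deacetylase gene Hdac2, at 54.7 ± 3.93 FPKM in the tumours and 45.8 ± 4.005 FPKM in the glands, and Rbbp4, at 43.1 ± 3.42 and 40.4 ± 2.47 FPKM, did not pass. Without glands 1 and 3, limma called 0 genes of either list. The calls of Ruvbl1 and Rbbp7 were also lost at a common sum (adjusted p = 0.0524 and 0.0568) and with the replicate block (0.0539 and 0.0576), that of Wdr5 at a common sum (0.0618) and that of Rbbp7 without tumour 2 (0.0519).

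Of 15 listed genes that set the lifetime of the Myc protein, 14 were matched and tested, of which 5 were higher, 2 lower and 7 did not pass (median 0.23). The share called, 50%, was close to the 45.1% of all tested genes. By direction, 35.7% were higher and 14.3% lower, against 21.9% and 23.1%. Ppp2r5a, a phosphatase subunit that promotes Myc degradation, had the smallest p: it averaged 35.2 ± 0.675 FPKM in the tumours and 141 ± 7.80 FPKM in the glands (-1.97, SE 0.09, adjusted p = 2.6e-05). Aurka, a mitotic kinase that shields N-Myc from degradation, averaged 27.8 ± 3.62 FPKM in the tumours and 6.11 ± 0.216 FPKM in the glands (2.01, SE 0.12). The ubiquitin ligase subunit Skp2 was higher (1.06) and the deubiquitinase Usp28, which stabilises Myc, was lower (-0.99). The kinase Gsk3a (0.26) and the ligase Stub1 (0.15) did not pass, although Gsk3a passed without tumour 3 (adjusted p = 0.0452). Without gland 1 the list held 4 calls in place of 7, and Usp28 lost its call with glands 1 and 3 left out (adjusted p = 0.0529). Protein levels were not measured.

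Cell division genes were higher in 15 of 15 cases (median log2 fold change 1.38), against 21.9% of all tested genes. Rrm2, a subunit of the enzyme that makes deoxynucleotides, averaged 64.7 ± 3.82 FPKM in the tumours and 12.7 ± 0.937 FPKM in the glands (2.27, SE 0.10, adjusted p = 2.4e-05). Cyclin B1 (Ccnb1, 2.04), Ube2c (1.97) and the kinase Plk1 (2.08) were the next by p. The summed level of the list was 863.5, 793 and 773 FPKM in tumours 1 to 3, against 318, 269 and 309 FPKM in glands 1 to 3.

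**Figure D5:**
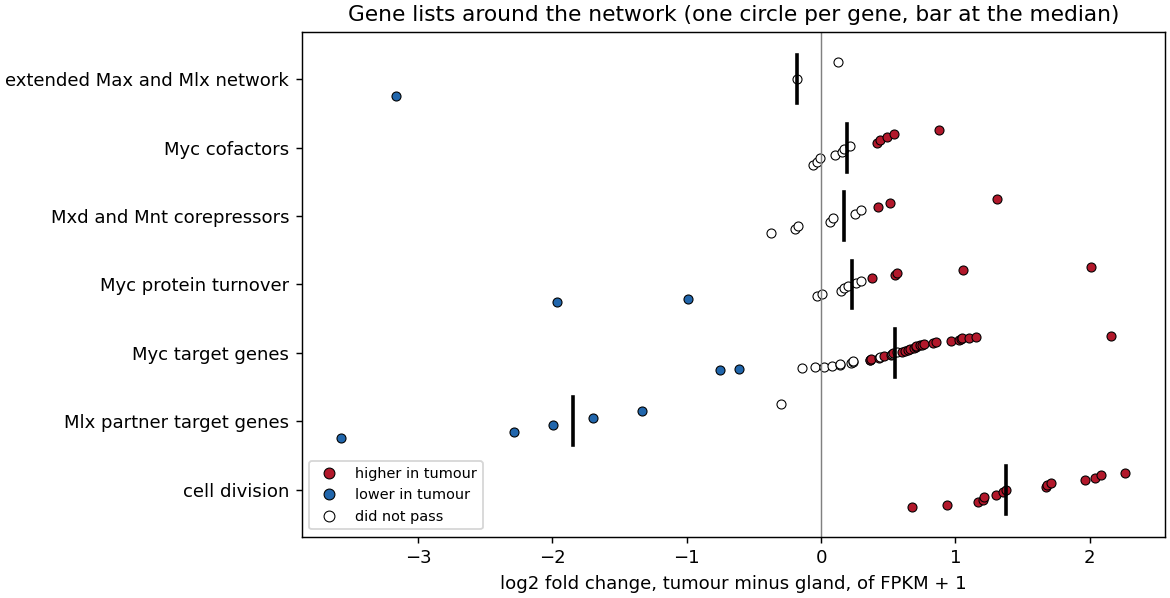
Log2 fold change (tumour minus gland, FPKM + 1) of each tested gene in the lists around the network, one circle per gene, red for higher, blue for lower and white for not passed, with a bar at the list median. Myc target and cell division genes lie mostly to the right of 0, and Mlxipl and the Mlx partner target genes to the left.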

How the data were processed

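Total RNA was sequenced from 3 tumours and 3 glands. Per the submitters' processing notes, HISAT2, StringTie and build mm10 were used, without versions or steps, and the annotation was not given. The deposited header names no unit, and the authors' values were taken as FPKM because they are not whole, never negative and differ in sum between libraries. Values were tested as log2(FPKM + 1) for the 13364 genes whose mean reached 1 FPKM, tumour minus gland, with limma 3.58.1 (mean-variance trend, 2-sided, Benjamini-Hochberg, R 4.3.3). The fit was also run on simulated data in which few genes changed, all upward. That setting differs from these data and says nothing of the calls near the threshold. FPKM carry no counts, so counting error did not enter the fit. Network genes and lists were chosen with earlier results of these data known. From each list the text names up to 4 called genes with the smallest p and up to 2 uncalled genes with the highest mean, apart from a gene that is not reported here. Positions are from GENCODE M21, promoter windows from RefSeq (GRCm38.p6). The alternatives changed the pseudocount, minimum mean and scaling, added a replicate block or a 2-fold minimum, or left out libraries.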

Additional observations from a re-analysis of the deposited data

How the results depend on the processing

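The count of called network genes, 6 with Mycl, depended on the setting. It was 3 with a minimum mean of 5 FPKM, which left 7 tested, 3 at a common sum per library (1 higher, 2 lower, against 3 and 3), 3 with the replicate block, 1 with glands 1 and 3 left out, 1 with a fold change of at least 2, and 2 to 5 without 1 library. Over all genes, 6023 were called, 2052 with glands 1 and 3 left out, 2967 with a fold change of at least 2, and 4307 to 6371 without 1 library. With glands 1 and 3 left out, the 1 gland was assumed to vary like the other libraries. Myc cofactors had 3 calls at a common sum, 3 with the replicate block, 0 with glands 1 and 3 left out and 0 at 2-fold, against 5, and 4 to 5 without 1 library. Corepressors had 0 with glands 1 and 3 left out and 1 at 2-fold, against 3, and 2 to 3 without 1 library. Myc turnover genes had 4 with the replicate block, 3 with glands 1 and 3 left out and 3 at 2-fold, against 7, and 4 to 8 without 1 library. Myc target genes had 12 with glands 1 and 3 left out and 6 at 2-fold, against 27, and 19 to 29 without 1 library. Mxd1 reached -0.10 without gland 2 (0.22 at most without 1 library), Mxi1 0.0078 without tumour 1 (-0.35 at least), and Mnt 0.0795 under quantile normalization, 0.057 with glands 1 and 3 left out and 0.053 without tumour 1 (-0.38 at least). Other genes without a call also changed sign: under quantile normalization Mga (0.0431), Rbbp4 (-0.0012) and Paics (-0.0939), Paics at a common sum (-0.0473) and without 1 library (-0.0163 to 0.0641), Mlxip without 1 library (-0.0872 to 0.379), and Kat5 with glands 1 and 3 left out (0.164) and without 1 library (-0.123 to 0.0303). The cause was not tested. Quantile normalization put the median log2 fold change of all genes at 0.119, against 0.008. No label says that libraries of the same number share a source. Deviations of same-numbered libraries from their group means had r = -0.0541, -0.118 and -0.124 across genes, and 0 of 3 tumours correlated best with the gland of its number. With 3 libraries per group, these correlations cannot show whether a source was shared. Absolute depth is unknown, so the counting error of low genes such as Mycn and Mycl is unknown too.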
